A study of Schizosaccharomyces pombe with 24 samples.

Results

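The long non-coding RNA (lncRNA) genes of the fission yeast Schizosaccharomyces pombe were described from the genome annotation deposited with a ChIP-seq series. They were chosen as the gene features whose identifier starts with SPNCRNA, on chromosomes I, II or III, outside the annotated centromeres. This rule gave 7094 genes out of 12633 genes in the annotation, and 114 further SPNCRNA genes were left out because they overlapped a centromere. Each was compared with the 5113 protein-coding genes, which are the genes with an mRNA. The rule used names and positions only and no measured value.

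The series holds 24 libraries made with antibodies against dimethylated or trimethylated lysine 9 of histone H3, with 1 library for each combination of reporter site, genotype and antibody. At the ectopic site, labelled ura4D::10xteto-ade6+, there were 14 libraries from WT, clr4D, swi6D, swi6D mst2D, swi6D set1D, swi6D mst2D set1D and mst2D set1D cells. At the endogenous site, labelled cenHD::10xteto-ade6+, there were 10 libraries from WT, swi6D, swi6D mst2D, swi6D set1D and swi6D mst2D set1D cells. All strains were grown to log phase in YEA at 32C, and all carried the reporter of 10 tet operators beside ade6+. The 2 annotations used here, named after the reporter that each contains, give positions and no value per library, and no label ties either of them to a strain. Every number below is therefore a complete count over an annotation, with no replicate error and no test between strains.

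In fission yeast, lncRNAs are made by RNA polymerase II across much of the genome, and many are removed quickly by the nuclear exosome. An antisense RNA comes from the strand opposite a coding gene, so its transcription passes through the same DNA in the other direction. A same-strand lncRNA that begins upstream of a gene can repress it by being transcribed through its promoter, as is known for the phosphate-responsive genes. Some lncRNAs carry clustered copies of the motif bound by Mmi1, the protein that sends meiotic transcripts to the exosome during vegetative growth. Transcription of non-coding RNA is a known route to heterochromatin in this yeast.

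The starts of 3 lncRNA genes with a known effect on a phosphate gene are shown because they illustrate the same-strand class. Each line gives 150 bases before the lncRNA start and 50 bases after it on the lncRNA strand, read from the NCBI RefSeq genome ASM294v3. The windows are chrII:354185-354384 on the minus strand for nc-tgp1, chrII:4446209-4446408 on the plus strand for nc-pho1 and chrII:4442392-4442591 on the plus strand for prt2. Capitals mark CAGTCAC, the core of the HomolD box of ribosomal protein promoters, and the TATA words TATAAA and TATATA, each searched on both strands.
nc-tgp1: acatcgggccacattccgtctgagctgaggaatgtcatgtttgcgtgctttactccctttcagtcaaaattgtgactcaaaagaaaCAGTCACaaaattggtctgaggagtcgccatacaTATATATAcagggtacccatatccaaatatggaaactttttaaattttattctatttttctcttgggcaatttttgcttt
nc-pho1: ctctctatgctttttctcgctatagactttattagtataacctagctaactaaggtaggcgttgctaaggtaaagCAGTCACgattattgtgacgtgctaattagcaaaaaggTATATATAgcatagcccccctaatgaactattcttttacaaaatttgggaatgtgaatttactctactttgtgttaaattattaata
prt2: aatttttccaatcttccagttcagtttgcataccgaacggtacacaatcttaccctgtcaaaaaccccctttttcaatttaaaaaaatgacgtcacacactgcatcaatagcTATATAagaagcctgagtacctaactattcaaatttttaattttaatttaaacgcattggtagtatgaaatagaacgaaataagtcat

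Counting the first base of the lncRNA gene as 0, CAGTCAC began at -64 in nc-tgp1 and at -75 in nc-pho1, and it was not found in the prt2 window. A TATATA word lay nearer the start in each, first at -30 in nc-tgp1, at -37 in nc-pho1 and at -38 in prt2. In windows from 250 bases before to 50 bases after the start, CAGTCAC was present at 147 of 7060 lncRNA genes (2.08%) and at 241 of 5102 coding genes (4.72%). At cytoplasmic ribosomal protein genes it was present at 124 of 139 (89.2%). A TATA word was present at 50.4% of lncRNA genes and at 60.1% of coding genes, and among lncRNA genes it was at 47.1% of antisense, 61.4% of intergenic and 63.9% of same-strand members. In the same-strand class CAGTCAC was present at 6 of 108 genes (5.56%). A match is a description of the letters and does not show a bound factor.

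The start codons of 4 heterochromatin genes are shown because an antisense lncRNA gene runs across each of them. Each line gives 30 bases of ASM294v3 on the lncRNA strand, and the capitals CAT mark the complement of the ATG start codon. Clr4 is the H3K9 methyltransferase, Ago1 is the Argonaute protein of RNAi, Dcr1 is Dicer, and Chp2 is an HP1 protein that works with the SHREC histone deacetylase. The windows are chrII:458030-458059 on the plus strand for clr4, chrIII:334125-334154 on the minus strand for ago1, chrIII:1510273-1510302 on the plus strand for dcr1 and chrII:4349983-4350012 on the minus strand for chp2.
SPNCRNA.4728 at clr4: ctcttgtttaggcgaCATtcgcaaaactaa
SPNCRNA.6799 at ago1: gcttggtttatacgaCATcctactcactct
SPNCRNA.7402 at dcr1: aaaacttgaaatatcCATtcaaaaagaaaa
SPNCRNA.6563 at chp2: gtcggcacttttgacCATtattaagacttt

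Most lncRNA genes were antisense. Of 7094, 5453 (76.9%) overlapped a protein-coding gene on the opposite strand by 1 base or more. A further 108 (1.52%) overlapped coding genes on their own strand only, and 1533 (21.6%) overlapped none and are called intergenic. Of the antisense genes, 94 also overlapped a coding gene on their own strand. The plus strand carried 3595 and the minus strand 3499 of the lncRNA genes.

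Chromosome I held 3122 lncRNA genes, chromosome II 2637 and chromosome III 1335. These numbers came to 134, 142 and 146 lncRNA genes per 100 coding genes, in that order. The antisense share was 78.6% on I, 76.3% on II and 74.0% on III. It was lower towards the telomeres: in the last 100 kb of both ends of I and II, 103 of 236 lncRNA genes (43.6%) were antisense and 131 (55.5%) intergenic, against 79.0% and 19.6% in the rest of both chromosomes. Coding genes in these end regions were shorter, with a median of 1245.5 bases against 1775, and 62.1% of them had an antisense lncRNA gene against 75.9% elsewhere. The end regions held 190 lncRNA genes per 100 coding genes and the rest 136. This is a ratio to coding genes and not a density per kb, which was not counted.

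**Figure D1:**
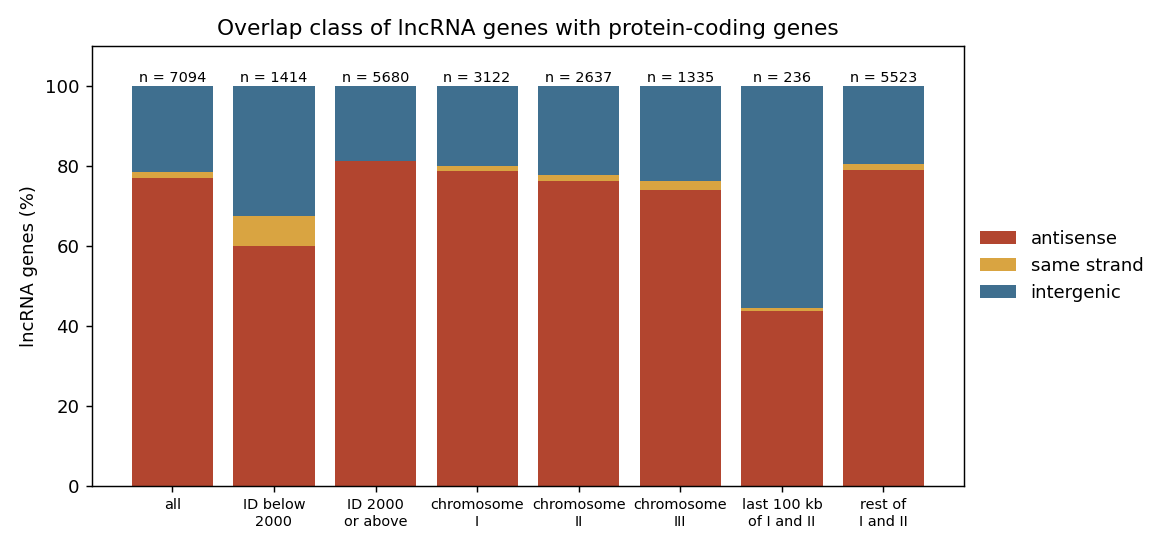
Share of lncRNA genes (%, vertical axis, stacked bars) that were antisense, same strand or intergenic with respect to protein-coding genes, for all genes, by identifier range, by chromosome and by distance from the ends of chromosomes I and II, with the number of genes above each bar. The antisense share is 81.1% for identifiers of 2000 and above, 60.0% below 2000 and 43.6% in the last 100 kb of I and II.

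The name lncRNA fitted nearly every member by its annotated RNA type. The RNA was typed lncRNA in 7047 genes, sncRNA (small non-coding) in 34, snoRNA (small nucleolar) in 11 and snRNA (small nuclear) in 2. The 34 sncRNA genes had a median length of 122 bases, and 32 of them were intergenic. Only 6 members (0.0846%) had more than 1 exon, whereas 48.1% of coding genes had an intron. Symbols of their own were given to 84 members.

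Identifier numbers split the genes into 2 sets of unequal size, and the classes were not spread over them evenly. Numbers below 2000 were carried by 1414 genes, and 1400 of these were also present in the ectopic-site annotation. Numbers of 2000 and above were carried by 5680 genes (80.1%), and 0 of these were in the ectopic-site annotation. Of the lower-numbered genes 60.0% were antisense, 7.36% same strand and 32.7% intergenic. Of the higher-numbered genes 81.1% were antisense, 18.9% intergenic and 0.0704% (4 genes) same strand. With the ectopic-site annotation, which holds 5120 protein-coding genes, 1075 (21.0%) had an antisense lncRNA gene.

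Among the 1400 genes found in both annotations, 1262 (90.1%) had the same class in both. The commonest change was from antisense in the ectopic-site annotation to intergenic in the endogenous-site annotation, in 67 genes. The product text of the ectopic-site annotation also names a class. Of 579 genes described there simply as antisense, 575 (99.3%) were antisense by position. Of 311 described as intergenic, 152 (48.9%) were intergenic by position and 156 (50.2%) overlapped a coding gene antisense. Of 104 described as intergenic and a possible alternative UTR, 67 (64.4%) were same strand.

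Antisense lncRNA genes were longer than intergenic ones. The median length was 694 bases for antisense genes (quartiles 370 and 1287), 944.5 for same-strand genes (662.5 and 1326.25) and 430 for intergenic genes (287 and 702). Over all lncRNA genes the median was 611 bases, against 1773 for coding genes. The order of antisense and intergenic medians was the same in both identifier ranges, with 1340 and 666 bases below 2000, and 592 and 372 bases from 2000 up. No gene with a number of 2000 or above was shorter than 200 bases, while 38 genes below 2000 were.

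**Figure D2:**
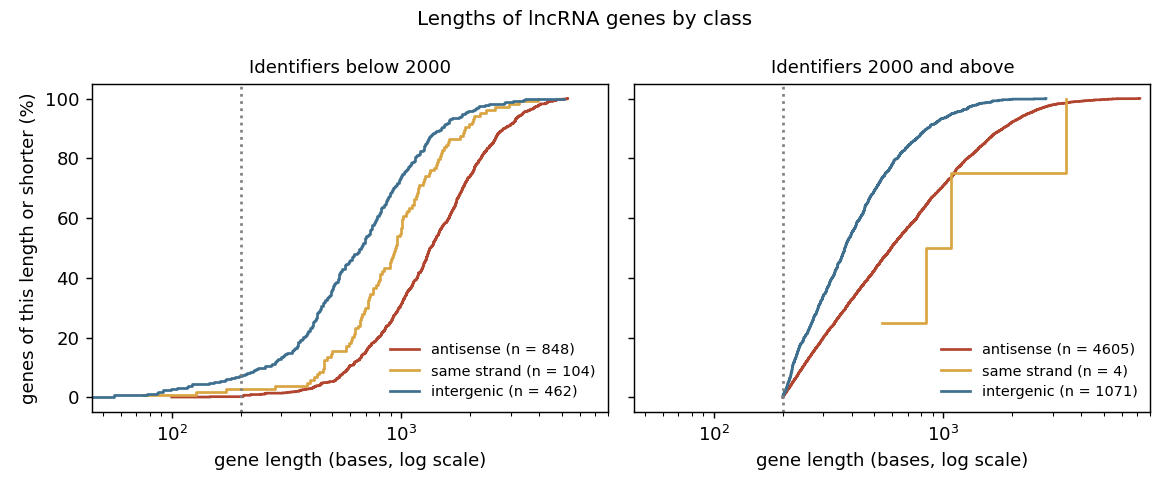
Cumulative share of lncRNA genes (%, vertical axis) of a given length or shorter (bases, log horizontal axis), by class, for identifiers below 2000 (left) and of 2000 and above (right). The dotted line marks 200 bases, where the antisense and intergenic curves on the right begin, and the antisense curve lies to the right of the intergenic curve in both panels.

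The longest antisense gene was SPNCRNA.3340 with 7193 bases, which covered agl1 completely and 3523 bases of pdr1 from its start. SPNCRNA.5375 followed with 5957 bases, across rga4, cbp7 and esf2. The longest intergenic gene was SPNCRNA.1164 with 5123 bases, whose start lay 121 bases from the start of gsf2 on the opposite strand. The longest same-strand gene was SPNCRNA.1115 with 3950 bases, which overlapped the first 391 bases of SPCC1235.01. At the short end, SPNCRNA.498, a candidate snoRNA of 100 bases inside yea4, was the shortest antisense gene. SPNCRNA.116 and SPNCRNA.118, paralogous small RNAs, had 56 bases each. SPNCRNA.391, a small RNA of the mating-type region, was listed with 3 bases, and a comment in the annotation marks its 5′ side as cut off by inserted sequence.

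Antisense lncRNA genes covered the starts of coding genes more often than their ends. The excess lay mainly where the next coding gene downstream was on the opposite strand. Of such genes 37.1% had an antisense lncRNA gene over the start only and 3.85% over the end only. Where the next coding gene lay on the same strand, 35.2% and 33.3% did. The 5453 antisense genes and 3863 coding genes formed 6014 overlapping pairs. In 2926 pairs (48.7%) the lncRNA gene reached neither end of the coding gene. In 1855 (30.8%) it covered the start only, in 877 (14.6%) the end only and in 356 (5.92%) the whole coding gene. The median overlap was 472 bases for pairs over neither end, 586 over the start and 398 over the end. When the coding gene was covered whole, its median length was 1178.5 bases and that of the lncRNA gene 2094. When neither end was reached, the coding gene's median length was 2545 bases.

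The part of the coding gene that was overlapped differed between the identifier ranges. Below 2000, 40.6% of 1014 pairs covered the start only, 27.7% the end only, 16.2% both ends and 15.5% neither end. From 2000 up, 55.4% of 5000 pairs reached neither end, 28.9% covered the start only, 11.9% the end only and 3.84% both ends. Pairs over the start only were more numerous than pairs over the end only in both ranges.

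**Figure D3:**
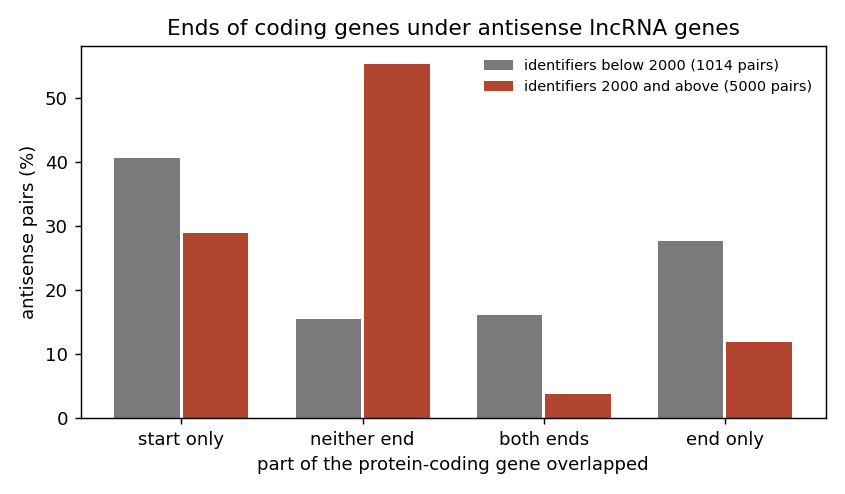
Share of antisense pairs (%, vertical axis) in which the lncRNA gene overlaps the start only, neither end, both ends or the end only of the protein-coding gene, for the 1014 pairs with identifiers below 2000 and the 5000 pairs with identifiers of 2000 and above. Pairs over neither end make up 15.5% and 55.4%.

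Along the coding genes, antisense cover was 44.0% of genes in the first 2% of the gene, was highest at 51.5% about 21% into the gene, and was lowest at 24.2% in the last 2%. The peak lay in the higher-numbered genes. Their cover was 32.6% at the start, 40.0% at its highest and 15.4% at the end, while that of the lower-numbered genes lay between 8.59% and 11.9% all along. Counted over bases, antisense lncRNA genes covered 41.0% of 5′ UTR, 48.7% of coding regions with their introns and 20.1% of 3′ UTR. The start codon lay under an antisense lncRNA gene in 2538 coding genes (49.6%) and the stop codon in 1680 (32.9%). Both codons did in 1189 (23.3%) and neither in 2084 (40.8%).

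Cover by lncRNA genes on the same strand as the coding gene was higher outside coding genes than inside them. All lncRNA genes on that strand entered, including those classed as intergenic or as antisense to another coding gene. This cover was 2.07% of coding genes at the start, 0.352% at its lowest in the middle and 1.41% at the end. About 500 bases outside the gene on either side it was 22.2% and 23.7%. The 208 same-strand pairs were mostly short contacts at gene ends. Of these pairs 201 involved identifiers below 2000 and only 7 identifiers of 2000 and above, so the higher-numbered set holds almost no same-strand overlap. The start of the coding gene was overlapped in 114 pairs, with a median of 49 bases, and the end in 70 pairs, with a median of 64 bases. Whole coding genes were covered in 11 pairs, and 13 lncRNA genes lay inside.

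**Figure D4:**
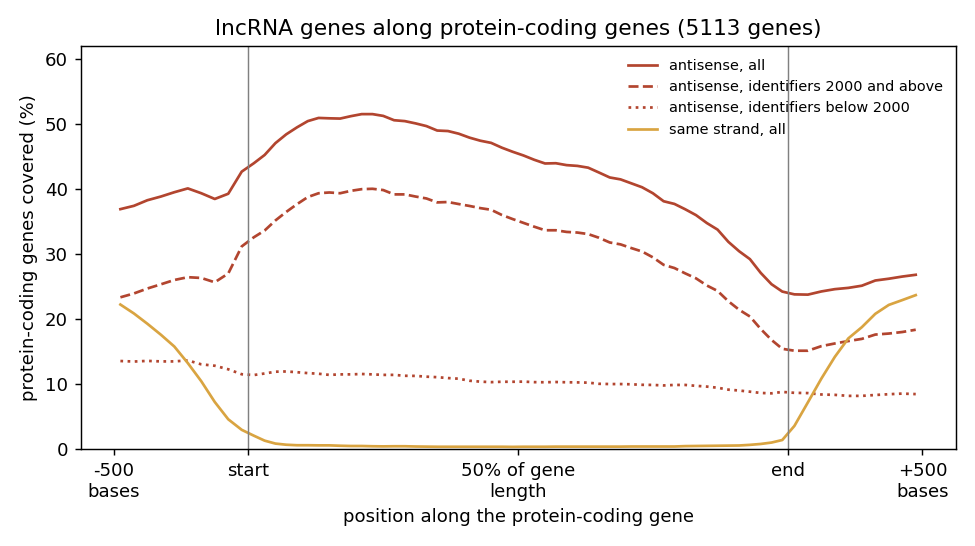
Share of the 5113 protein-coding genes (%, vertical axis) covered by a lncRNA gene along the gene (horizontal axis, scaled from start to end in % of gene length, with 500 bases on each side). Curves are for lncRNA genes on the opposite strand (antisense), in all and by identifier range, and for those on the same strand. Strand is relative to the coding gene drawn, and lncRNA genes of every class enter, so those in the flanks need not overlap that gene. Antisense cover peaks at 51.5% in the first part of the gene and is lowest inside the gene at its end, 24.2%, where same-strand cover starts to rise.

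Of the 5113 coding genes, 3863 had an antisense lncRNA gene, so the background for the gene lists below is 75.6%. Some genes are on several lists, among them clr4, set1, chp1, chp2 and mei2, so the lists do not count separate genes. There was 1 antisense lncRNA gene at 2398 coding genes (46.9%), 2 at 1004 (19.6%) and 3 at 322 (6.30%). The most, 8, lay inside mdn1, a 14352-base gene for a ribosome assembly ATPase, and ranged from 256 to 1931 bases in length. Another 7 coding genes had 7 each. They include mkh1, a MAP kinase kinase kinase gene of 3907 bases, and sib1, a siderophore synthetase gene of 15232 bases. The 7 at mkh1 had between 204 and 809 bases. In the other direction, SPNCRNA.3832 covered 4 coding genes completely, namely new11, SPAC23A1.14c, sec20 and rtr1. It was the only lncRNA gene antisense to 4 coding genes, while 4914 were antisense to 1.

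The share of coding genes with an antisense lncRNA gene rose with coding gene length. In 5 equal groups by length it was 59.6%, 73.2%, 78.5%, 79.7% and 86.9% from shortest to longest. Per kb of coding gene, the number of antisense pairs went the other way, from 0.879 in the shortest group to 0.480 in the longest. Cover of the whole gene fell from 15.5% to 2.54%, and overlap with neither end rose from 13.3% to 65.4%.

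The neighbour of a coding gene went with cover of its end. Where the next coding gene downstream lay on the opposite strand, so that the genes converged, 108 of 2804 genes (3.85%) had an antisense lncRNA gene over the end only. Where it lay on the same strand, 768 of 2304 (33.3%) did. Cover of the start only was 37.1% and 35.2%, and any antisense lncRNA gene was present at 68.0% and 84.8%. Of the convergent genes, 1786 overlapped the next coding gene itself, and 18 of these (1.01%) had an antisense lncRNA gene over the end only. Over the whole annotation, 1924 coding genes (37.6%) overlapped another coding gene antisense, and 75.4% of these overlaps lay over the end of the gene.

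**Figure D5:**
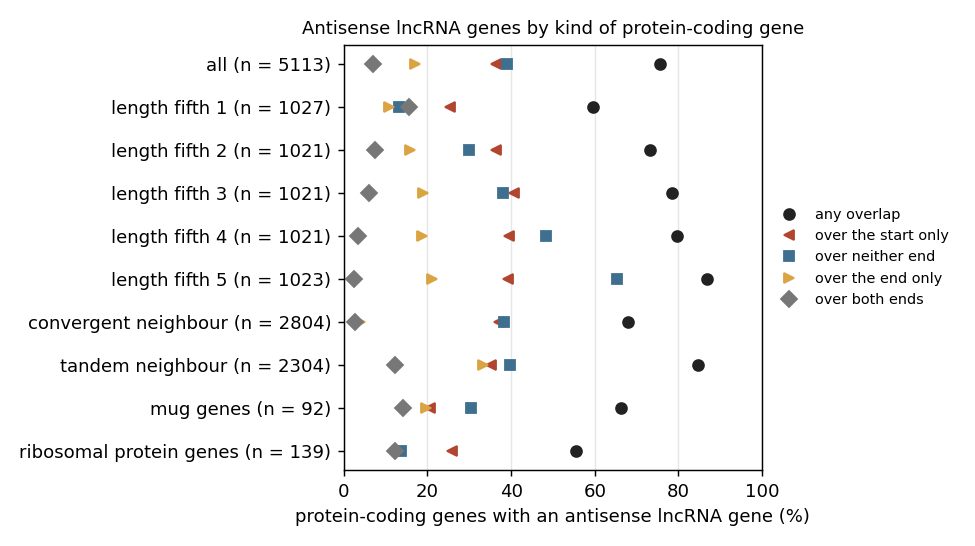
Share of protein-coding genes (%, horizontal axis) with an antisense lncRNA gene of any kind, or over the start only, neither end, the end only or both ends, for all coding genes, 5 groups from shortest to longest, genes convergent or in tandem with the next coding gene, and 2 gene lists. Cover of the end only is 3.85% in convergent and 33.3% in tandem genes.

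Among the genes deleted in the series, clr4 and set1 had an antisense lncRNA gene, and swi6 and mst2 had none. SPNCRNA.4728 lay inside clr4 and covered 1563 bases, which is 35.4% of that gene and includes its start codon. SPNCRNA.6837 lay inside set1, the H3K4 methyltransferase gene, and covered 612 bases or 16.7%. Swi6 is the main HP1 protein and Mst2 a histone acetyltransferase. Their genes lie on chromosome I at 1702406 to 1704098 and at 2363499 to 2366934, both on the minus strand.

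RNAi genes all had an antisense lncRNA gene (11 of 11), in 8 of them over the start only. Of all coding genes 1854 (36.3%) had one over the start only. At ago1 there were 3: SPNCRNA.6799 overlapped the first 167 bases, and SPNCRNA.6800 and SPNCRNA.6801 lay inside with 1536 and 610 bases. At dcr1, SPNCRNA.7402 overlapped the first 326 bases and SPNCRNA.7401 lay inside with 1395. The Argonaute chaperone gene arb1 was covered whole by SPNCRNA.771. At cid12, a poly(A) polymerase gene of the RNA-dependent RNA polymerase complex, SPNCRNA.7455 covered the first 506 bases. The helicase gene hrr1 of the same complex had 2 inside it, of 363 and 1228 bases.

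The RNA elimination and exosome genes also all had one (10 of 10). Inside mmi1 lay SPNCRNA.6802 and SPNCRNA.6803, which covered 13.3% and 50.4% of it. The exosome nuclease gene rrp6 had SPNCRNA.2260 over its first 814 bases and SPNCRNA.2261 inside with 1205 bases. At pla1, the poly(A) polymerase gene, the overlap was 8 bases. Genes of both lists are long, with medians of 3386 and 2729.5 bases against 1773 for all coding genes, and the share with antisense rose with length as given above.

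The chromatin lists given next, not all of them of heterochromatin factors, lay nearer the background. In the Clr4 complex 5 of 6 genes had an antisense lncRNA gene, and stc1, which links the complex to RNAi, had none. SPNCRNA.1200 overlapped the first 327 bases of rik1, and SPNCRNA.909 the last 592 bases of cul4, the cullin gene. Of the chromodomain and HP1 list 2 of 3 had one, including chp2, where SPNCRNA.6563 covered 73.1% from the start. In SHREC 4 of 5 had one. The histone deacetylase gene clr3 was covered whole by SPNCRNA.1331, and clr1 was touched at both ends, by 69 bases at the start and 63 at the end. In the Mst2 complex 5 of 7 had one, with nto1 overlapped over 1213 bases from its end and ptf2 over 773 bases from its start. In the Set1 complex 5 of 8 had one, and SPNCRNA.6258 covered 97.8% of ash2. Of 3 anti-silencing genes 2 had one, and at epe1, the JmjC gene that opposes heterochromatin spreading, SPNCRNA.67 and SPNCRNA.7363 covered 48.4% and 23.6%.

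Of 10 listed histone genes, pht1 included, 7 had an antisense lncRNA gene, and hhf2, hhf3 and hta1 were covered whole. Of 12 meiosis regulators 9 had one. SPNCRNA.5202 covered 66.7% of mei4, a meiotic transcription factor gene, and SPNCRNA.5714 covered 90.4% of rec8, the meiotic cohesin gene. Of 92 mug genes, which are named for upregulation in meiosis, 61 (66.3%) had one, against the background of 75.6%. Of 139 cytoplasmic ribosomal protein genes 77 (55.4%) had one. The median length of these genes was 686 bases, and the share in the shortest length group of all coding genes, with a median of 783 bases, was 59.6%.

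The phosphate genes were overlapped on both strands. Of 4 listed, 3 had a same-strand lncRNA gene. The effects of these 3 lncRNA genes were known when the list was made. The number is therefore not comparable with the 3.97% found over all coding genes. The nc-pho1 gene ran through the first 1413 bases of pho1, the acid phosphatase gene. The prt2 gene overlapped the first 1870 bases of pho84, the phosphate transporter gene. The nc-tgp1 gene overlapped the first 77 bases of tgp1, a glycerophosphodiester transporter gene. These genes each had an antisense lncRNA gene as well: SPNCRNA.6617 with 223 bases inside pho1, SPNCRNA.6616 over 1879 bases of pho84 from its start, and SPNCRNA.4681 over 1355 bases of tgp1 from its start. The transcription factor gene pho7 had none.

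The 84 lncRNA genes with symbols were spread over the 3 classes. Antisense members included tos1 and tos2, both antisense to rec7, a meiotic recombination gene, with overlaps of 1142 and 549 bases. They also included rse1, a repressor of ste11 in the reference annotation, whose only overlap was 25 bases at the end of cyc3. The RNase P RNA gene rrk1 overlapped the first 143 bases of pre10. Same-strand members included sme2 (meiRNA), which overlapped 212 bases at the end of mrpl8, and nam1, which overlapped 76 bases at the end of mlo3. Intergenic members included ter1, the telomerase RNA of 1413 bases in 2 exons, srp7, the signal recognition particle RNA of 255 bases, and mrp1, the RNase MRP RNA of 399 bases. The commonest symbol stem, prl, had 22 antisense, 6 same-strand and 28 intergenic members. These are not a single family: prl101 to prl108 are described in the reference annotation as Pdc2-repressed, and most others as poly(A)-bearing.

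The most copies of the Mmi1 motif TNAAAC in any 120 bases were in sme2, whose RNA is the known decoy of Mmi1 in meiosis. The 120 bases of ASM294v3 with the most copies in sme2 and in nam1, a lncRNA that represses byr2 per the reference annotation, are shown on the lncRNA strand with the motif in capitals. They lie at chrII:339347-339466 and chrII:1742709-1742828, both on the minus strand.
sme2: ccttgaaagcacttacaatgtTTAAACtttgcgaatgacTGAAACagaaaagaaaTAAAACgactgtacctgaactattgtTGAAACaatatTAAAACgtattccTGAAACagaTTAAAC
nam1: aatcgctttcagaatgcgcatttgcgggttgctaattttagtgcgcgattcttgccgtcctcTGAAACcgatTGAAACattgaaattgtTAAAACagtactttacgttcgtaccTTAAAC

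The sme2 stretch held 7 copies and began at base 1442 of 1562, and the nam1 stretch held 4. No other lncRNA gene and no coding gene had 7 copies in any 120 bases, while 19 of 7060 lncRNA genes (0.269%) and 34 coding genes (0.666%) had 4 or more. Over the whole gene, sme2 and nam1 held 9 copies each, or 5.76 and 6.04 per kb, and prt2 held 11. The gene with the most was SPNCRNA.6197, which held 18 copies in 4859 bases inside mok13. Over all lncRNA genes the motif occurred 1.99 times per kb on the lncRNA strand, and its reverse complement GTTTNA 1.87 times. Coding genes had 1.76 and 2.02 on their own strand. Single copies were thus common in genes of every kind.

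Intergenic lncRNA genes were AT-richer than antisense ones, and more of them started close to a divergent coding gene. Their GC content was 33.5% over bases, against 37.4% for antisense lncRNA genes and 37.2% for coding genes. Of intergenic genes 27.1% started within 250 bases of the start of a coding gene that runs the other way, without overlapping it. With overlapping starts included, the share was 15.9% for antisense genes and 18.3% for all lncRNA genes, and 12.5% of coding genes started this near another coding gene. For lncRNA genes with identifiers below 2000 it was 30.3%, and for those of 2000 and above 15.3%. The median distance to a divergent coding start was 757 bases for intergenic and 768 for antisense genes, and 429.5 for antisense genes over the end only. Among antisense genes the share was 37.1% for those over the end only of a coding gene, 26.1% over the start only and 3.35% over neither end. The word AATAAA, found in poly(A) signals, lay in the last 50 bases of 10.2% of lncRNA genes and 16.4% of coding genes, and its reverse complement TTTATT in 4.89% and 11.9%. The lower AATAAA share lay in the lncRNA genes with identifiers of 2000 and above, at 8.59%, while those below 2000 had 16.7%. For TTTATT these shares were 3.86% and 9%.

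Around the reporters, the endogenous-site annotation had 18 lncRNA genes within 20 kb of the tet array at 2135068 to 2136948 on chromosome II. The nearest were SPNCRNA.5505, an intergenic gene 6047 bases to the left, and SPNCRNA.391, the cut small RNA 6712 bases to the right. Since inserted sequence cuts SPNCRNA.391 on the side facing the array, that distance includes inserted sequence. To the right, SPNCRNA.1489 covered the start of emc3, and SPNCRNA.5508 its end and the start of mtd1. In the ectopic-site annotation, with the reporter at 115325 to 118393 on chromosome III, 9 SPNCRNA genes lay within 20 kb. SPNCRNA.1110, which overlapped the start of SPCC330.06c on its own strand, was nearest at 1810 bases to the right, and SPNCRNA.1109, inside mug135 and antisense to it, was 1883 bases to the left. Because that annotation has no identifiers of 2000 or above, the 18 and 9 are not comparable.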

How the data were processed

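The series profiled H3K9me2 and H3K9me3 by ChIP-seq in 24 libraries. Trimmomatic and BWA are named, with no version, in the submitters' processing notes. The genome build of the deposited files and any read counting were not given in the sources used. The 2 deposited files are annotations in which the authors list feature starts and ends in bases, counted from 1. They hold no read count or signal per library, so the depth is unknown.

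Members, classes and gene lists were chosen with earlier results of these data known. Overlap of 1 base between gene extents counted, introns included, and antisense took precedence. Protein-coding genes had an mRNA in the endogenous-site annotation and a coding sequence in the ectopic-site one. Positions are those of the endogenous-site annotation unless ASM294v3, the RefSeq assembly that gave all sequences, is named. Identifiers, lengths and strands matched it for 7060 of 7094 lncRNA and 5103 of 5113 coding genes, and motif and GC counts cover these. The promoter words searched were settled after the sequences were seen. The genes named are members with symbols, the longest and shortest of each class, the longest or most numerous overlaps, those at listed genes and those nearest the reporters. Other overlap limits, coding sequence only, same-strand precedence, subsets and the other annotations were tried. On a simulated annotation, the classes of 800 of 800 lncRNA genes and 436 of 436 pairs equalled a base-by-base comparison. Counts were made in Python 3.11.15 with numpy 2.4.6 and scipy 1.17.1 (for intervals), and figures drawn with matplotlib 3.10.9.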

Additional observations from a re-analysis of the deposited data

How the results depend on the processing

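Of 84 alternative values for 19 results, 48 stayed within 1.5 times (counts) or within the 95% interval of the value reported (shares and medians), and 36 moved. Reversal of a direction was not looked for. The ectopic-site annotation held 1566 lncRNA genes. The 1400 members found in both annotations were classed there as 65.6% antisense, 9.21% same strand and 25.2% intergenic. The antisense pairs of these 1400 genes there covered the start only in 41.0%, the end only in 27.1%, both ends in 11.9% and neither end in 20%. Identifiers below 2000 gave 60.0%, 7.36% and 32.7% for the 3 classes, those of 2000 and above 81.1%, 0.0704% and 18.9%. Chromosome I gave 78.6% antisense and 20.1% intergenic, and chromosome III 74.0%, 2.10% and 23.9%. The same-strand number was 37 with overlaps of 200 bases, 31 with overlaps of 50% of the lncRNA gene, 20 with coding sequence only and 202 with same strand first. The median antisense length was 735 and 754 bases with overlaps of 200 bases and with coding sequence only. The same-strand median was 734 with overlaps of 50%, 807 with coding sequence only and 1210.5 with same strand first, and the intergenic median was 515 with overlaps of 50%. Pairs over the end only were 576 with overlaps of 200 bases. With coding sequence only, pairs over both ends were 867 and over neither end 1792, by construction, since coding sequences are shorter than genes. The share of coding genes with an antisense lncRNA gene was 71.7% with overlaps of 200 bases, 71.3% with coding sequence only, 43.2% over the start and 24.1% over the end. These shares, and the 576 pairs over the end only, are lower by construction, since each keeps only part of the overlaps. The same-strand number with same strand first is higher by construction. The cause of the other changes was not tested. Leaving out the 47 genes of other RNA types, an alternative chosen after seeing the data, gave 7047 genes and moved no class number. No paired analysis was possible because no result comes from a test between libraries. Read depth limits no value here, since all are counts over annotations.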

Other observations

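The lncRNA genes also overlapped each other, mostly on opposite strands. Of the 7094, 1425 (20.1%) overlapped another lncRNA gene on the opposite strand, and this held for 912 of the 1533 intergenic ones (59.5%). On the same strand 97 overlapped, in 52 pairs, and 2 of these pairs joined genes from both identifier ranges. Joining the overlapping genes on a strand left 7044 separate loci. Where several lncRNA genes lay antisense to a coding gene, the median gap between neighbours was 231 bases. Between neighbours both numbered 2000 or above it was 213 bases, with 0 of 1795 gaps negative, while 17 of the 37 pairs of neighbours both below 2000 overlapped.

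Base composition followed the cover of the genome. The bases of coding genes with no lncRNA gene on either strand had a GC content of 36.5%, and those under a lncRNA gene had 38.2%. The parts of lncRNA genes outside coding genes had 33.2%, and bases in neither kind of gene had 30.8%. These parts made up 41.5%, 35.1%, 11.8% and 11.6% of the 3 chromosomes.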
